A study of Mus musculus with 7 samples.

Results

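MERVL and MT2 loci were taken as the rows of the RepeatMasker count table whose element name starts with MERVL or MT2. They numbered 46168 of the 3494995 LINE, SINE and LTR loci listed, of which 6499 were internal parts, which hold the viral genes, and 39669 were long terminal repeats (LTRs), which flank an internal part and carry its promoter. The internal parts were 2600 MERVL-int and 3899 MERVL_2A-int loci. The LTRs were 10140 MT2A, 13977 MT2B, 7248 MT2B1, 3655 MT2B2, 1982 MT2C_Mm and 2667 MT2_Mm loci. RNA-Seq libraries had been made from whole testes of C57BL/6 mouse embryos at E14.5, with 1 pair of testes per library. The 3 wild-type libraries (WT) were compared with 4 libraries of Glis3 mutant embryos (Mutant), which are homozygous for the zf5 allele, a global null mutation of the transcription factor gene Glis3 in which the loss of exon 4 disrupts DNA binding. No Cre or transgene drives the loss, so Glis3 is disrupted in every cell of the embryo and not in germ cells alone. The comparison asked whether transcripts of these elements differ in testes without functional Glis3.

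MERVL is a class III endogenous retrovirus of the mouse, and MT2_Mm is the LTR of its youngest copies. MT2A, MT2B, MT2B1, MT2B2 and MT2C_Mm are older relatives that mostly remain as solo LTRs, left behind when an internal part is lost by recombination between its flanking LTRs. Around the time the zygotic genome is activated, the transcription factor DUX turns on MT2_Mm and the genes that use it as a promoter. Afterwards the elements are kept silent by chromatin repressors such as KDM1A and by histone methylation.

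The count table held between 3454317 and 4670830 reads per library, and MERVL and MT2 loci took between 0.925% and 1.03% of them, or 34049 to 48070 reads. Ribosomal RNA had been removed without selection for poly-A tails, so unspliced transcripts were sequenced, and the protocol did not keep strand. The library labelled wild-type replicate 3 stood apart. Its Glis3 FPKM, a level per transcript length and depth, was 2.91, against 7.63 and 6.89 in the other wild-type libraries. Mutant replicates 1 to 4 had 3.86, 3.26, 2.90 and 2.66, and since FPKM covers exons that the mutation leaves in place, Glis3 checks the labels only in part. The summed FPKM of 22 germ cell genes was 1974, 1523 and 961 in wild-type replicates 1 to 3 and 779 to 911 in mutant libraries, and all 22 had a negative log2 fold change. In whole testes, fewer cells of a type and less RNA per cell cannot be told apart. All 10 fetal Leydig cell genes had a positive log2 fold change, with sums of 1932 to 3052 FPKM in wild-type and 2965 to 3568 in mutant libraries. The part of these differences in the values below was not tested. Results that turn on wild-type replicate 3 are given with and without it.

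The promoter of an LTR can be read where a RefSeq transcript starts inside it. Windows of 300 bases (250 before and 50 after the start, GRCm38, the mm10 build) were matched to the loci, and 77 windows of 74 genes had their start inside a MERVL or MT2 locus on the same strand. Of these starts 22 lay in MT2_Mm, 18 in MT2C_Mm, 18 in MT2B1, 8 in MT2B2, 6 in MT2A, 4 in MT2B and 1 in MERVL_2A-int. Windows of 3 MT2_Mm, 1 MT2C_Mm and 2 MT2B1 starts are shown because they place side by side the promoter of the youngest LTR and of its relatives. Capitals mark TATAA, the letters of a TATA box searched on the transcribed strand, and GATTNAATC, the core of the site that DUX is known to bind, which reads the same way on both strands. The motifs were chosen after windows had been looked at.
Gm4340, MT2_Mm, chr10:104193792-104194091, plus strand: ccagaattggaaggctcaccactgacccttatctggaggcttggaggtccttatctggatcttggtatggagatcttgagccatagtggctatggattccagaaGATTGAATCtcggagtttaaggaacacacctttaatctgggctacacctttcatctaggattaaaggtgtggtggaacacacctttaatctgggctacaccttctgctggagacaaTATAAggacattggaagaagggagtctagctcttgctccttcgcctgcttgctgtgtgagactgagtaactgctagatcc
Pemt, MT2_Mm, chr11:60040139-60040438, minus strand: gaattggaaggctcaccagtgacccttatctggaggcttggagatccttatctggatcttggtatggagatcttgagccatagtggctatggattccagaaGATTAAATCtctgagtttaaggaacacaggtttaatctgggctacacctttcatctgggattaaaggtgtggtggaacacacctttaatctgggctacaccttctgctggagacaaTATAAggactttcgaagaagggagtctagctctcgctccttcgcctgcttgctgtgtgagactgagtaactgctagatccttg
Sp110, MT2_Mm, chr1:85603842-85604141, minus strand: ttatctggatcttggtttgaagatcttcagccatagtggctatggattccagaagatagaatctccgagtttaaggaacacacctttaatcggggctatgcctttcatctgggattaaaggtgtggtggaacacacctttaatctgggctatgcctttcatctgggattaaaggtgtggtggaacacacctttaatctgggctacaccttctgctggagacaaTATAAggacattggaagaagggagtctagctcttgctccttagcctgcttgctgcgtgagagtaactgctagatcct
Sgk1, MT2C_Mm, chr10:21985854-21986153, plus strand: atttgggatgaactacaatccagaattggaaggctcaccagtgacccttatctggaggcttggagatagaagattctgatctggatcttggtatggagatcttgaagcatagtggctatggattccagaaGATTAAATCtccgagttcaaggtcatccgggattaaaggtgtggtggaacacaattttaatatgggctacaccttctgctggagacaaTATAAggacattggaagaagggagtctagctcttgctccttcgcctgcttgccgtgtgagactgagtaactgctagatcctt
Zfp352, MT2B1, chr4:90218570-90218869, plus strand: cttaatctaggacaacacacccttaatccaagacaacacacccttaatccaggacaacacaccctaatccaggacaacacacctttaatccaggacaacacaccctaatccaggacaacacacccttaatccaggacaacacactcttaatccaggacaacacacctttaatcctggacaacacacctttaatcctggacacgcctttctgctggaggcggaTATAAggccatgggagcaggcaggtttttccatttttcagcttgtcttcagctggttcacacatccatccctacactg
Tdpoz1, MT2B1, chr3:93676234-93676533, minus strand: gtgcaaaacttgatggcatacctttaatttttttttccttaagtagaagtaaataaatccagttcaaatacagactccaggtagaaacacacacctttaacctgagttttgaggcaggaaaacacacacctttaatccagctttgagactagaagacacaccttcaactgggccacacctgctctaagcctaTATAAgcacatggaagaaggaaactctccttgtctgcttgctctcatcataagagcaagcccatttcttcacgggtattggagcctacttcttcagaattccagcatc

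TATAA was in all 22 MT2_Mm windows, in 11 of 18 MT2C_Mm windows and in 12 of 18 MT2B1 windows, against 17.5% of all 32851 promoter windows. Its 23 matches in the MT2_Mm windows lay at a median of 30 bases before the start. GATTNAATC was in 20 of the 22 MT2_Mm windows, in 3 MT2C_Mm and in 2 MT2B1 windows, and in 0.268% of all windows. The window of Sp110, which encodes a nuclear body protein, was 1 of the 2 MT2_Mm windows with no match. Copies of 1 LTR share their sequence by descent, so these shares describe a family and not separate events.

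Most loci had few reads or none. No library gave a read for 31937 of the 46168 loci (69.2%), 3715 loci (8.05%) averaged 1 read or more over the libraries, and 576 averaged 10 or more. The 3715 loci held 91.8% of the reads of MERVL and MT2 loci, and the 10 most abundant loci held 19.7%. Per length, the level over all annotated loci of a name was lowest for MERVL-int, at 141 CPM (reads scaled to a common library size) per megabase in wild-type libraries, followed by MT2_Mm at 386 and MT2C_Mm at 640. MT2B1 had 794, MT2B 876, MT2A 923, MERVL_2A-int 1152 and MT2B2 1386 CPM per megabase. MERVL-int and MT2_Mm, the parts of the youngest proviruses, thus had the lowest densities of the 8 names. Only uniquely mapped reads were counted, which leaves out reads shared by near-identical copies, and their number was not analysed here.

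The length of an internal part moved with its reads. Of the 1379 MERVL-int loci under 500 bases, 8.48% had a read in any library, whereas 97.0% of the 595 loci of 5000 bases and over did. Read density, pooled over all loci of a class, fell with length in MERVL-int. It was 1.51 mean reads per kilobase per library in the shortest parts and 1.16, 0.964 and 0.311 in the longer classes. The median locus did not follow this fall, with 0, 0.154, 0.161 and 0.108 in the same order. In the shortest class 117 of the 1379 loci had a read, so the pooled density there came from a minority of loci. MERVL_2A-int, a diverged relative of the MERVL internal part, had pooled densities of 2.40, 4.09, 7.17 and 2.66 mean reads per kilobase in the same classes. Its longest class held 15 loci, and a single locus of 3414 bases on chromosome 17, described below, gave 1459 of the 2988 mean reads of the class of 2000 to under 5000 bases.

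**Figure D1:**
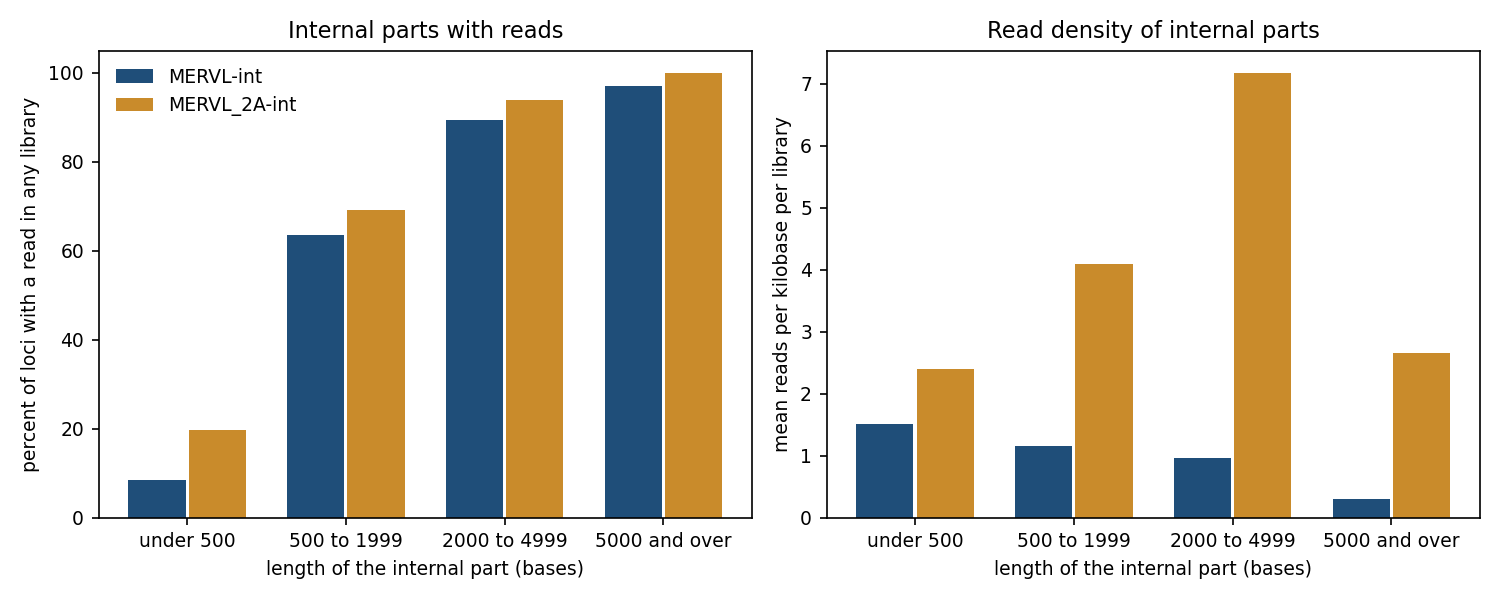
The left panel plots the percent of MERVL-int and MERVL_2A-int loci with a read in any of the 7 libraries against the length class of the locus, and the right panel the mean reads per kilobase per library in the same classes. The density of MERVL-int is 0.311 in the class of 5000 bases and over and 1.51 in the class under 500 bases, while MERVL_2A-int is densest, at 7.17, from 2000 to under 5000 bases. Densities are pooled over all loci of a class, and the median MERVL-int locus under 500 bases had no read.

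Most reads came from loci inside annotated genes. Loci that overlap an exon in GENCODE M21 were 3.77% of the LTRs and 2.32% of the internal parts but held 43.1% and 37.2% of their reads. Intronic loci held 45.7% of LTR reads and 50.6% of internal reads. Loci outside genes were 58.0% of the LTRs and 69.4% of the internal parts and held 11.2% and 12.2% of the reads. Where a single host strand was given, LTRs on the antisense strand of the host had 7.82 mean reads per kilobase per library and those on the sense strand 6.58. Internal parts showed the other order, with 2.62 on the antisense and 5.17 on the sense strand. Of the 5066 mean reads of internal parts on the sense strand, 1459 came from the single locus on chromosome 17 named above. Single loci weighed on both strands of the LTRs as well. Exonic LTRs of Stip1, Mrpl50 and Thoc3 gave 1022, 971 and 902 of the 15223 mean reads on the antisense strand. Those of Atad2, Aatf, Stk3 and Pramef8 gave 687, 570, 411 and 330 of the 7897 on the sense strand. The order of the strands thus depends on a few loci. Reads of an element and of its host transcript cannot be told apart in these unstranded libraries.

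Summed over its loci, none of the 8 element names differed between groups past the threshold (adjusted p of 0.1, edgeR's quasi-likelihood test), against 0.12% of the 831 names tested. At an unadjusted p under 0.05 there was 1 name, MT2C_Mm, against 16.1% of all names. DESeq2 called 0 of the 8, against 5.54% of all names. MERVL-int had 591, 639 and 603 CPM in wild-type replicates 1 to 3 and 612, 634, 637 and 633 in mutant replicates 1 to 4. WT averaged 611 ± 25.2 (SD, n = 3) and Mutant 629 ± 11.4 (SD, n = 4). On the log2 scale Mutant over WT was 0.04 with a standard error of 0.042 (edgeR, adjusted p = 0.596). The mutant values lay inside the wild-type range.

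MT2_Mm, the LTR of the same provirus, had 462, 482 and 452 CPM in wild-type libraries and 463, 458, 497 and 479 in mutant libraries. The groups overlapped, with a log2 fold change of 0.03 and a standard error of 0.047 (edgeR, adjusted p = 0.761). MERVL_2A-int averaged 2376 ± 119 CPM (SD, n = 3) in wild-type and 2413 ± 122 (SD, n = 4) in mutant libraries, a log2 fold change of 0.02 with a standard error of 0.049.

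MT2C_Mm had 469, 473 and 439.9 CPM in wild-type libraries and 483, 483, 518 and 501 in mutant libraries. All mutant libraries lay above all wild-type libraries, as for 14.6% of the 831 names, and MT2C_Mm was the only name of the 8 whose groups did not overlap. Its log2 fold change was 0.11 with a standard error of 0.047 (edgeR's quasi-likelihood test, adjusted p = 0.294). This value fell to 0.06 (adjusted p = 0.640) without wild-type replicate 3, the lowest library, and was 0.06 over loci averaging 1 read or more and 0.05 with scaling to library size only. The log2 fold changes of MT2A, MT2B, MT2B1 and MT2B2 were 0.03, -0.03, 0.01 and -0.02, each below its standard error. The median over the 8 names was 0.03, and that over all 831 names was 0.08.

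**Figure D2:**
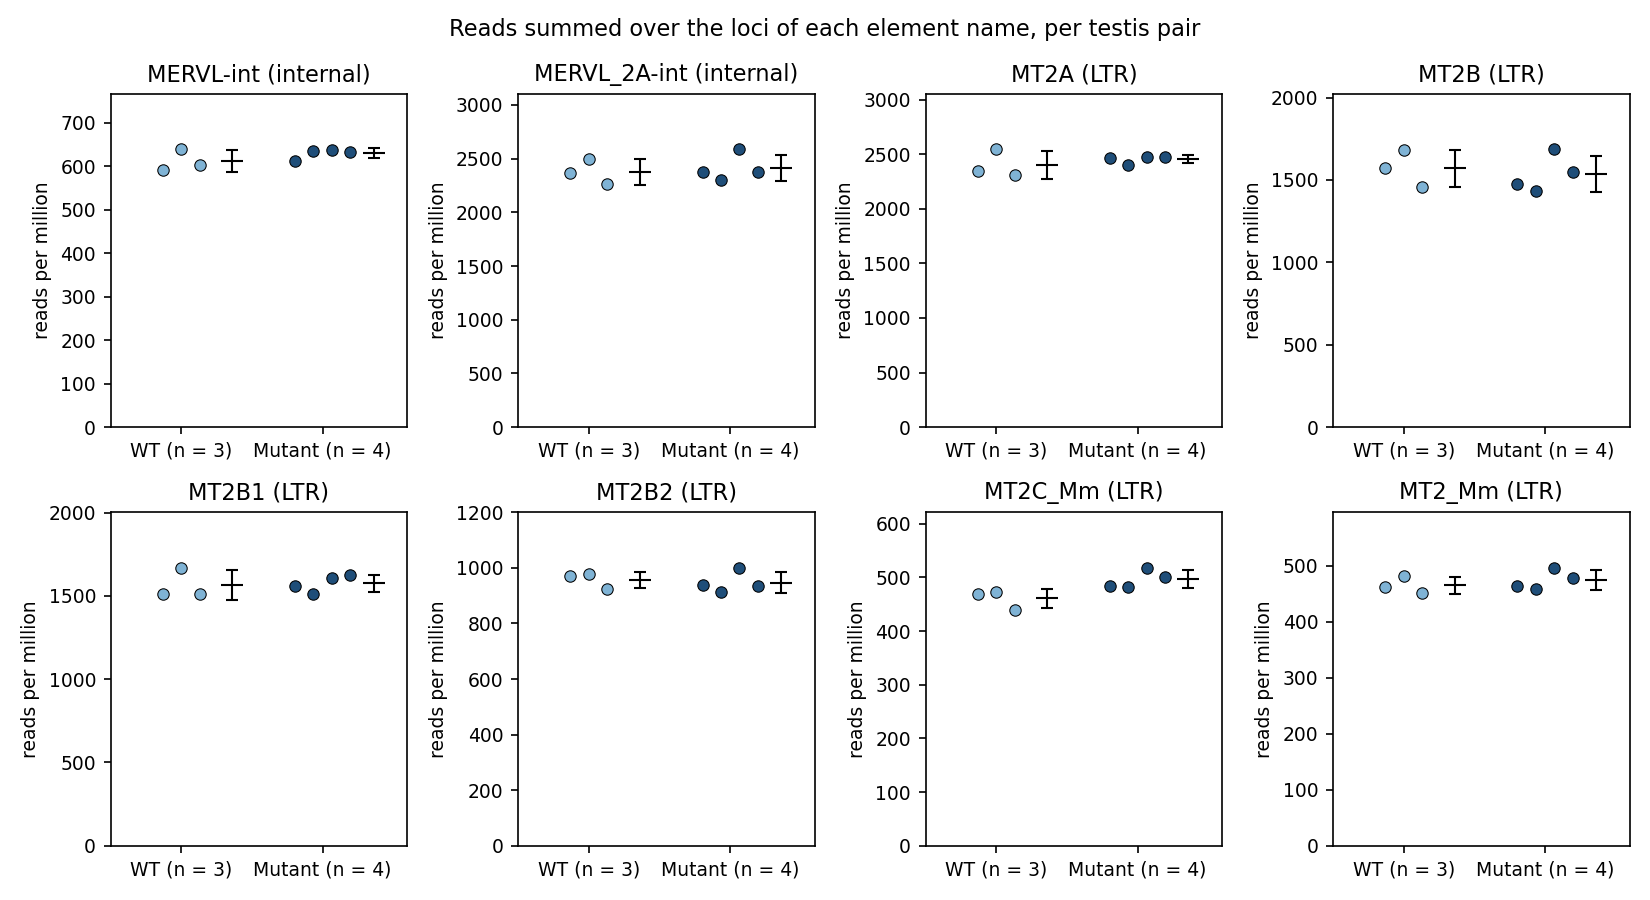
Each panel plots the CPM of 1 element name in the 3 WT and 4 Mutant libraries, with the mean and SD beside the points. MT2C_Mm is the panel in which all 4 Mutant libraries, at 483 to 518, lie above the 3 WT libraries, at 439.9 to 473.

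The balance between internal parts and LTRs did not differ beyond the spread between libraries. The log2 ratio of internal to LTR reads was -1.31, -1.32 and -1.31 in wild-type replicates 1 to 3 and -1.30, -1.29, -1.27 and -1.33 in mutant replicates 1 to 4. The difference of Mutant minus WT was 0.01 (two-sided exact permutation test on the means of the 35 arrangements, p = 0.429, 0.857 after adjustment over 8 such tests). These tests cannot give a p-value below 0.0286. The summed level of internal parts was 2987 ± 139 (SD, n = 3) and 3042 ± 126 (SD, n = 4) CPM, and that of LTRs was 7417 ± 377 (SD, n = 3) and 7480.4 ± 250.4 (SD, n = 4).

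The share of MERVL and MT2 reads in loci outside genes was 10.5%, 10.8% and 10.5% in wild-type replicates 1 to 3 and 12.3%, 11.5%, 11.9% and 13.0% in mutant replicates 1 to 4. The groups did not overlap. WT averaged 10.6% ± 0.170 (SD, n = 3) and Mutant 12.2% ± 0.670 (SD, n = 4), a difference of 1.58 percentage points (exact permutation test, p = 0.0571, adjusted p = 0.343). Over loci averaging 1 read or more the difference was 0.470 percentage points, and without wild-type replicate 3 it was 1.52. Over all loci of the table the share was 8.28% ± 0.263 (SD, n = 3) in wild-type and 9.51% ± 0.407 (SD, n = 4) in mutant libraries, also without overlap. The excess of MERVL and MT2 loci over the whole table was 2.03 to 2.49 percentage points in wild-type and 2.42 to 3.11 in mutant libraries, and these ranges overlapped.

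With sums taken over loci outside genes alone, 2 of the 8 names passed the threshold, both higher in mutant testes, against 22.3% of 703 names called higher. MERVL_2A-int outside genes had 171, 164 and 190.4 CPM in wild-type libraries and 239, 199, 230.1 and 229 in mutant libraries, with a log2 fold change of 0.36 and a standard error of 0.11 (edgeR, adjusted p = 0.0565). MT2_Mm outside genes had 88.2, 95.0 and 93.6 CPM in wild-type libraries and 112, 108, 119 and 115 in mutant libraries. Its log2 fold change was 0.30 with a standard error of 0.11 (edgeR, adjusted p = 0.0906). A single locus near Speer4a, described below, held 24.2% of the MT2_Mm reads outside genes. The median log2 fold change over the 703 names was 0.27. The groups of MERVL-int outside genes did not overlap either, at 151 ± 10.4 CPM (SD, n = 3) in wild-type and 173 ± 5.07 (SD, n = 4) in mutant libraries (edgeR, adjusted p = 0.198).

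**Figure D3:**
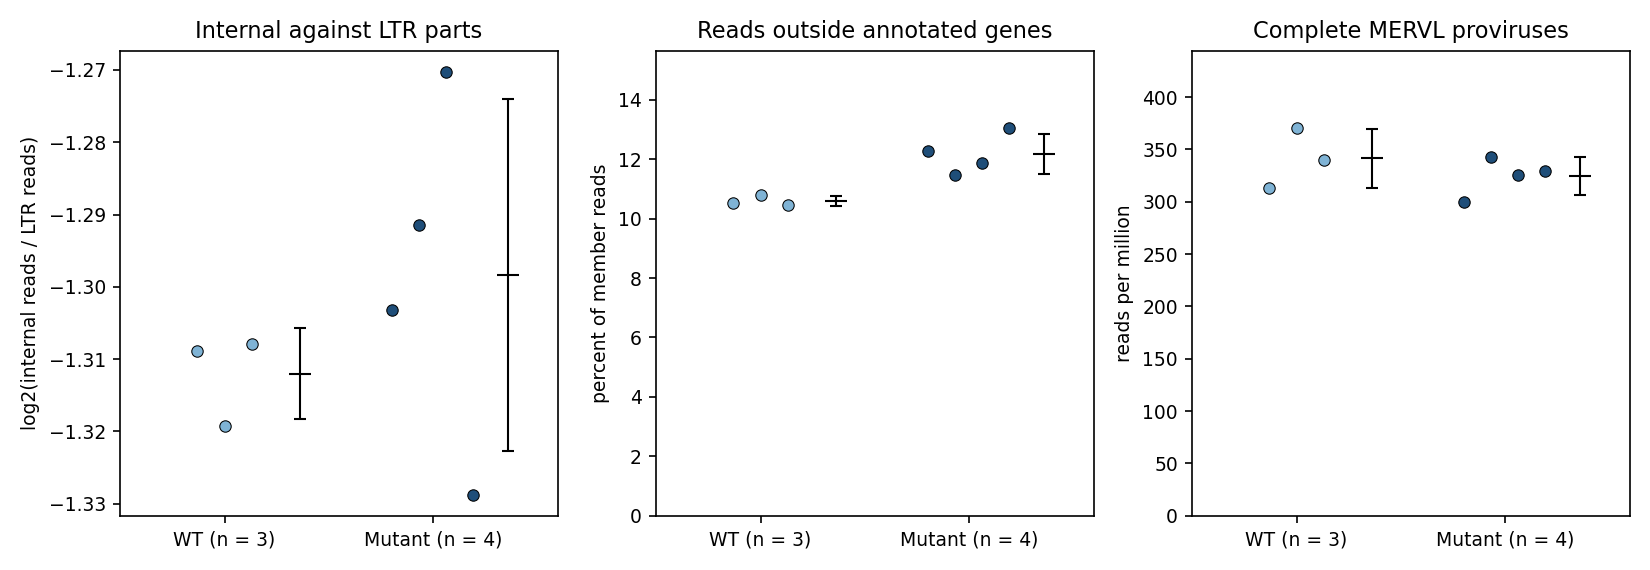
The panels plot, for each of the 3 WT and 4 Mutant libraries, the log2 ratio of internal to LTR reads (axis not from 0), the percent of MERVL and MT2 reads in loci outside genes, and the CPM of complete MERVL proviruses, with mean and SD. The groups are apart in the middle panel alone, at 10.5 to 10.8% in WT and 11.5 to 13.0% in Mutant.

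Single loci were tested together with all loci of the table that had a mean of at least 1 read. Of the 3715 MERVL and MT2 loci tested, 4 passed the threshold (edgeR, adjusted p of 0.1), 3 lower and 1 higher in mutant testes, against 0.0846% of the 464695 loci tested. DESeq2 called 0 of them, against 0.00323% of all loci. At an unadjusted p under 0.05, 101 MERVL and MT2 loci (2.72%) were lower and 76 (2.05%) higher, against 2.41% and 2.39% of all loci. The groups did not overlap at 114 loci with Mutant below WT and at 105 with Mutant above WT, or 3.07% and 2.83%, against 3.03% and 2.97% of all loci. These shares were near those of the whole table.

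The median log2 fold change was 0.01 over the MERVL and MT2 loci tested and 0.00 over all loci. It was 0.02 for MERVL-int (321 loci), 0.04 for MERVL_2A-int (464), -0.03 for MT2A (878), 0.05 for MT2B (543), 0.00 for MT2B1 (721), -0.02 for MT2B2 (303), 0.03 for MT2C_Mm (241) and 0.00 for MT2_Mm (244). By place, 60 intronic loci had Mutant above WT and 93 had Mutant below WT, or 2.32% and 3.60% of the intronic MERVL and MT2 loci, against 2.72% and 3.19% of all intronic loci. Outside genes 25 loci had Mutant above WT and 10 had Mutant below WT, or 3.59% and 1.44%, against 3.92% and 2.19% of all loci outside genes.

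**Figure D4:**
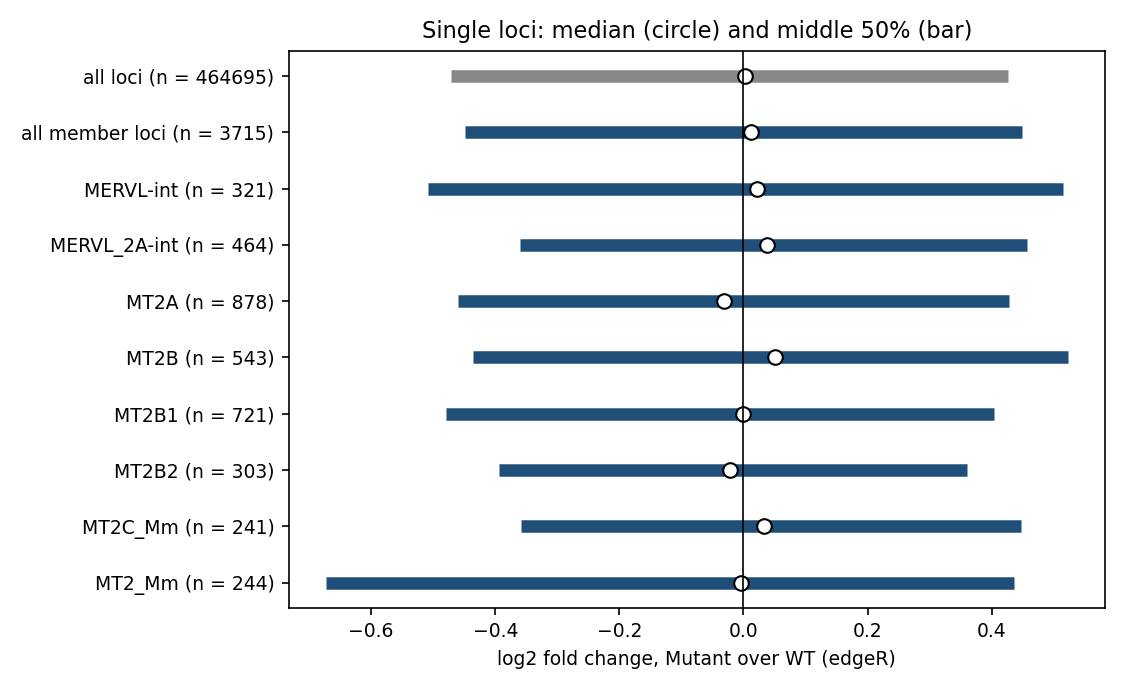
The circle marks the median and the bar the middle 50% of the log2 fold changes of single loci (Mutant over WT, edgeR), for all 464695 loci tested, for the 3715 MERVL and MT2 loci and for each element name. The medians lie between -0.03 and 0.05, and the bar of the 3715 loci runs from -0.45 to 0.45 beside -0.47 to 0.43 for all loci, while that of MT2_Mm reaches down to -0.67.

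All 4 loci past the threshold were among the 696 MERVL and MT2 loci tested outside genes. Over the whole table, 154 of 47483 loci outside genes were called, 127 of 43000 exonic loci and 112 of 374212 intronic loci. Calls were thus rarest in introns for all loci. None of the 436 exonic and 2583 intronic MERVL and MT2 loci tested was called, and 4 calls are too few to compare places. Among the 4, the smallest p was that of an MT2A LTR at chr5:73948765-73949230 (mm10, plus strand), 389 bases from the gene C78283. It had 24, 35 and 4 reads in wild-type replicates 1 to 3 and 11, 5, 1 and 2 in mutant replicates 1 to 4. The 2 high libraries were both wild-type, and wild-type replicate 3 lay within the mutant range. The log2 fold change was -1.89 with a standard error of 0.39 (edgeR, adjusted p = 0.00456), and without wild-type replicate 3 it was -2.39 (adjusted p = 9.3e-06). The call was lost without wild-type replicate 2 (-1.20, adjusted p = 0.959) and without mutant replicate 4 (-1.64, adjusted p = 0.112).

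A MERVL_2A-int locus at chr10:128443107-128444310 (minus strand), 1666 bases from Rnf41, a ubiquitin ligase gene, was higher. It had 45, 14 and 18 reads in wild-type libraries and 97, 59, 17 and 15 in mutant libraries. Mutant replicates 1 and 2 were high and mutant replicates 3 and 4 lay within the wild-type range, so the groups overlapped. The log2 fold change was 1.15 with a standard error of 0.24 (edgeR, adjusted p = 0.00621), and the call was lost without any 1 of wild-type replicates 2 and 3 and mutant replicates 1 and 2. The log2 fold change was 0.57 without mutant replicate 1 (adjusted p = 0.991), 0.94 without wild-type replicate 3 (adjusted p = 0.221), 0.91 without wild-type replicate 2 (adjusted p = 0.923) and 0.99 without mutant replicate 2 (adjusted p = 0.198). The next MERVL_2A-int locus with reads, at chr10:128444399-128445129, had 23, 7 and 5 reads in wild-type and 54, 21, 4 and 4 in mutant libraries, the same order of mutant libraries. Without the pair, MERVL_2A-int outside genes had 166 ± 16.0 (SD, n = 3) and 205 ± 23.4 (SD, n = 4) CPM, and its groups overlapped (exact permutation test, p = 0.114). With the pair its means were 175 and 224 CPM. That sum was tested by edgeR, which was not run without the pair, so the p-values cannot be compared.

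An MT2C_Mm LTR at chr7:42815487-42815951 (minus strand), 878 bases from Gm2381, had 77, 47 and 27 reads in wild-type and 22, 23, 21 and 17 in mutant libraries. Scaled to library size these were 16.5, 13.7 and 6.74 CPM in wild-type and 6.27, 6.85, 6.66 and 4.90 in mutant libraries. Wild-type replicate 3 lay within the mutant range. The log2 fold change was -0.9998 with a standard error of 0.25 (edgeR, adjusted p = 0.0687), and -1.31 without wild-type replicate 3 (adjusted p = 0.00123). Leaving out wild-type replicate 1 or 2 or mutant replicate 1, 2 or 4 ended the call (adjusted p of 0.106 to 0.948). The FPKM of Gm2381 was 2.85, 1.91 and 0.955 in wild-type and 1.05, 0.960, 0.973 and 0.693 in mutant libraries, with wild-type replicates 1 and 2 highest at both. The remaining call, an MT2A LTR at chr5:142315402-142315857, rested on wild-type replicate 2 with 13 reads beside 1 and 0 in the other wild-type libraries and 0 in every mutant library (edgeR, adjusted p = 0.0917). Without that library it fell below the filter of a mean of 1 read and was not tested. Leaving out any 1 mutant library ended the call (edgeR, adjusted p of 0.209 to 0.301). Without wild-type replicate 3 the adjusted p was 0.00822.

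**Figure D5:**
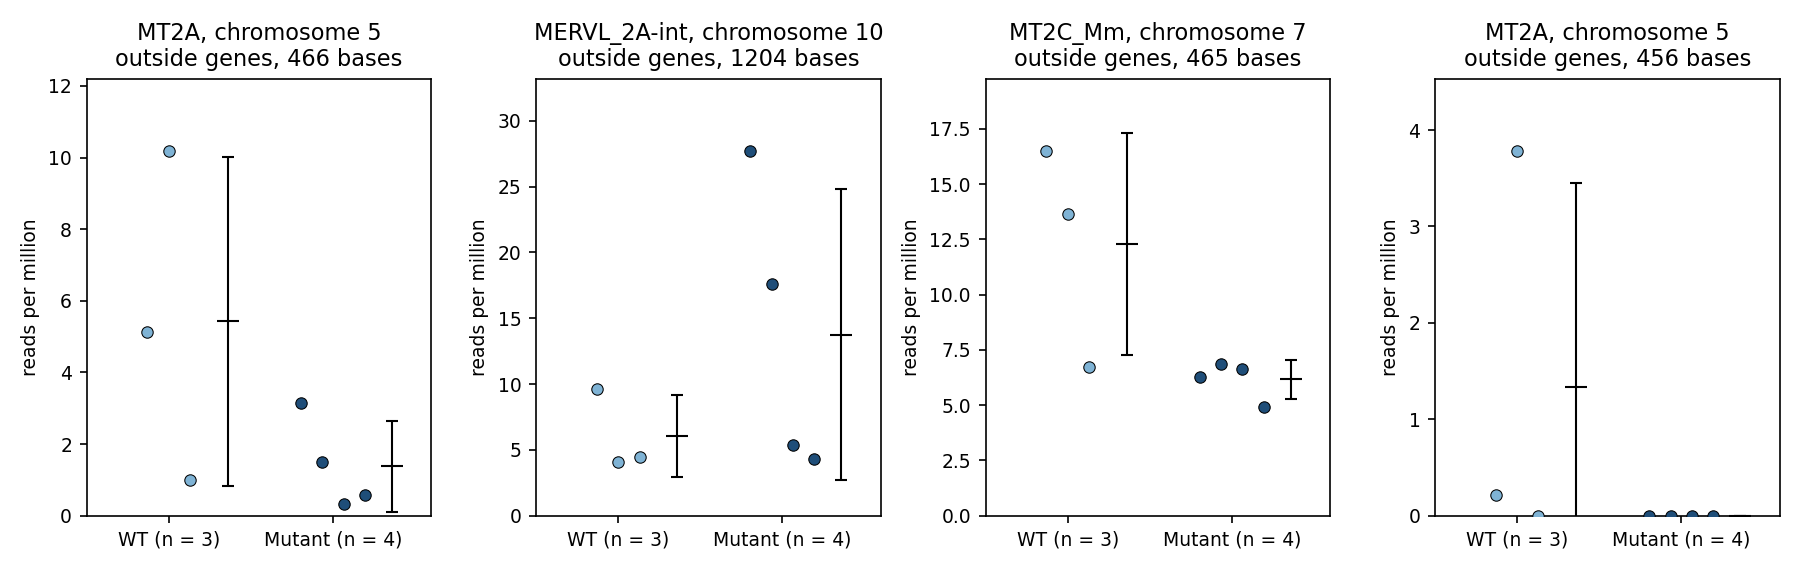
Each panel plots the CPM of 1 of the 4 MERVL and MT2 loci past the threshold in the 3 WT and 4 Mutant libraries, with mean and SD (SD bars end at 0). In each panel at least 1 library lies within the range of the other group or, in the last panel, 1 WT library carries nearly all reads.

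Without wild-type replicate 3, 7 MERVL and MT2 loci passed the threshold (edgeR), 6 lower and 1 higher, against 0.141% of the 467336 loci then tested. They included the 3 lower loci above, an exonic MT2B2 LTR of Fbxo15 (log2 fold change -0.94, adjusted p = 0.00469), a MERVL_2A-int part in an intron of CN725425 (-3.04, adjusted p = 0.0339) and one in an intron of Tcfl5 (-1.58, adjusted p = 0.0796). Fbxo15 is an F-box gene of pluripotent cells, and Tcfl5 is a transcription factor gene of male germ cells. The Tcfl5 locus had 25, 20 and 10 reads in wild-type libraries and 8, 9, 3 and 5 in mutant libraries. An exonic MT2C_Mm LTR of Gm34237 was higher, with 0, 4 and 8 reads in wild-type and 5, 11, 11 and 14 in mutant libraries. These 4 further loci were named after their values were seen. The 16 MERVL and MT2 loci inside the listed germ cell genes had 11, 11 and 8 reads in all in wild-type libraries. In mutant libraries they had 8, 4, 7 and 4. These counts are not scaled to library size, and 3 of the 16 loci could be tested.

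Next in order of p among lower loci were 2 parts of 1 provirus on chromosome 19, the chromosome of Glis3. Its MERVL-int part at chr19:32203795-32209080 (minus strand) overlaps the sense strand of Sgms1, a sphingomyelin synthase gene, and of the transcript AC113485.1. It had 12, 22 and 22 reads in wild-type and 8, 11, 3 and 0 in mutant libraries (log2 fold change -1.51, standard error 0.39, edgeR, adjusted p = 0.131). A flanking MT2_Mm at chr19:32203178-32203669 had 7, 12 and 14 reads in wild-type and 3, 5, 0 and 0 in mutant libraries, without overlap (log2 fold change -2.16, standard error 0.56, edgeR, adjusted p = 0.134). Both passed the threshold without wild-type replicate 1 and without mutant replicate 2. The whole provirus, which has a further MT2_Mm on its other side, had 22, 45 and 36 reads in wild-type libraries. In mutant libraries it had 11, 21, 3 and 1. Scaled to library size, its groups overlapped (exact permutation test, p = 0.0857). The FPKM of Sgms1 itself was 15.7 in wild-type and 16.6 in mutant libraries on average. Within Glis3, 2 MERVL and MT2 loci had 0 to 3 reads per library.

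Among higher loci, a MERVL_2A-int part in an exon of Gm47545 (chr12:69236863-69238745) had 9, 3 and 6 reads in wild-type and 12, 9, 19 and 17 in mutant libraries. An MT2A LTR in an intron of Adcy2, an adenylate cyclase gene, had 7, 2 and 2 reads in wild-type and 11, 8, 7 and 16 in mutant libraries. A MERVL_2A-int part at chr5:145272178-145274723, outside genes, had 1, 1 and 0 reads in wild-type and 7, 5, 2 and 7 in mutant libraries. Scaled to library size, none of these 3 overlapped between groups, and their adjusted p-values were 0.223, 0.302 and 0.326 (edgeR).

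The 10 most abundant loci all overlapped exons. The highest was a MERVL_2A-int part at chr17:45436602-45440015 in the noncoding gene B230354K17Rik, with 1902, 1669 and 1481 reads in wild-type and 1291, 1221, 1373 and 1278 in mutant libraries. Scaled to library size it had 421 ± 58.9 CPM (SD, n = 3) in wild-type and 384 ± 34.3 (SD, n = 4) in mutant libraries, and its groups overlapped. The neighbouring MERVL_2A-int part at chr17:45440193-45442015 had means of 222 and 216 CPM.

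An MT2B fragment of 21 bases in an exon of Stip1, a co-chaperone gene, had 360.0, 334 and 245 CPM in wild-type and 226, 224, 307 and 238 in mutant libraries. An MT2A LTR in an exon of Mrpl50, a mitochondrial ribosomal protein gene, had 253 ± 29.2 CPM (SD, n = 3) in wild-type and 280.4 ± 25.1 (SD, n = 4) in mutant libraries. One in Thoc3, a gene of mRNA export, had 259 ± 24.7 (SD, n = 3) and 236 ± 19.7 (SD, n = 4) CPM. These groups overlapped as well.

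At 2 of the 10 loci the groups did not overlap, 1 with Mutant above and 1 with Mutant below WT, against 4.07% and 2.63% of all exonic loci. The 10 had been chosen for their high counts. An MT2B2 LTR in an exon of Stk3, a kinase gene of the Hippo pathway, had 91.0, 103 and 95.6 CPM in wild-type and 125, 121, 133 and 129 in mutant libraries (log2 fold change 0.40, standard error 0.15, edgeR, adjusted p = 0.762). The FPKM of Stk3 was 27.1 and 31.4 on average, with all mutant libraries above wild-type. An MT2B2 LTR in an exon of Aatf had 171, 179 and 160.4 CPM in wild-type and 155, 136, 149 and 132 in mutant libraries, and the FPKM of Aatf was 46.1 and 38.2 on average. Outside genes the most abundant locus was an MT2_Mm LTR at chr5:26032031-26032522, 324 bases from Speer4a, with 22.1 ± 2.77 (SD, n = 3) and 27.8 ± 2.87 (SD, n = 4) CPM (edgeR, adjusted p = 0.977).

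Across loci inside a single host gene, the log2 fold change of the locus and that of the FPKM of its host were compared as a description. Pearson's r was 0.63 and Spearman's rho 0.53 over 74 loci that averaged 50 reads or more, in 67 hosts. Over the 429 loci that averaged 10 reads or more r was 0.20, and over all 2457 tested loci with a single host it was 0.11. The points share the same 7 libraries and the FPKM of a host with an exonic locus includes reads of that locus.

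Complete proviruses were defined as MERVL-int parts with an MT2_Mm on both sides on the same strand, joined over gaps of at most 100 bases. There were 603, with a median span of 6431 bases. Only 11 had no read in any library, yet the median was 0.714 mean reads per library and 235 had a mean of at least 1. Of the 603, 347 lay wholly outside genes, of which 28.8% had a mean of at least 1 read, and 256 touched a gene, of which 52.7% did. Proviruses that touch a gene held 72.2% of all provirus reads.

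Summed over all complete proviruses, wild-type replicates 1 to 3 had 314, 370.2 and 340.1 CPM and mutant replicates 1 to 4 had 299.7, 343, 326 and 329. The groups overlapped. WT averaged 341 ± 28.3 (SD, n = 3) and Mutant 324 ± 18.02 (SD, n = 4), a difference of -16.95 CPM (exact permutation test, p = 0.400, adjusted p = 0.857). Proviruses outside genes had 98.2 ± 10.9 (SD, n = 3) and 100.3 ± 6.65 (SD, n = 4) CPM (exact permutation test, p = 0.857). The 1156 MT2_Mm loci with no MERVL-int part beside them had 339.7 ± 9.58 CPM (SD, n = 3) in wild-type and 358 ± 13.1 (SD, n = 4) in mutant libraries, and their groups overlapped as well.

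The provirus with the most reads lay in an intron of Csnk2a1, which encodes the catalytic subunit of casein kinase 2, with 79, 65 and 63 reads in wild-type and 59, 64, 47 and 54 in mutant libraries. One in an intron of Trak2, a gene of mitochondrial transport, had 86, 56 and 51 reads in wild-type and 35, 40, 38 and 41 in mutant libraries. One in Mpv17l had 62, 46 and 34 reads in wild-type and 47, 37, 42 and 34 in mutant libraries. One in Gab2, a signalling adaptor gene, had 34, 22 and 33 reads in wild-type libraries, 0 in mutant replicate 1 and 15, 22 and 17 in the others. After scaling, the wild-type and mutant means were 17.2 and 16.6 CPM for Csnk2a1 and 15.8 and 11.4 for Trak2. They were 11.7 and 11.9 CPM for Mpv17l and 7.30 and 4.08 for Gab2. The groups of Csnk2a1, Mpv17l and Gab2 overlapped. Scaled to library size, 8 of the 235 proviruses with a mean of at least 1 read had Mutant below WT without overlap, among them that of Trak2, and 4 had Mutant above WT, or 3.40% and 1.70%, against 3.03% and 2.97% of all single loci tested. Other than that of Trak2, the 8 averaged 1 to 4.14 reads per library, and the 4 averaged 1 to 2.29. A provirus sums several loci and was filtered on its sum, so its shares and those of single loci are of unlike units.

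Genes of the two-cell programme had low listed FPKM. Of 31 listed genes 30 were in the FPKM table, 29 had a mean below 0.1 FPKM, 10 were listed at 0 in every library, and none reached the filter for a test. An FPKM at or near 0 cannot be read as lack of expression in this table, since Sumo2, a gene that every cell uses and that has near copies in the genome, averaged 0.0730 FPKM and was listed at 0 in mutant replicates 1 and 4. Their summed FPKM was 0.301 to 0.402 in wild-type and 0.312 to 0.412 in mutant libraries. Dux, which encodes the activator of MERVL, had 0.0169, 0.0393 and 0 FPKM in wild-type and 0.0201, 0.0451, 0.0588 and 0.0610 in mutant libraries. Zfp352, whose MT2B1 start is shown above, had at most 0.0268 FPKM in any library. Zscan4b, Zscan4c and Zscan4f were listed at 0 throughout, and Zscan4a and Zscan4d had a value above 0 in mutant replicate 4 alone.

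Of the 74 genes that start inside a MERVL or MT2 locus, 34 were in the FPKM table, 23 of these had a mean below 0.1 FPKM and 7 could be tested. None of the 7 passed the threshold (limma, adjusted p of 0.05), which 0.00715% of all genes did, so the count says nothing particular to them. The highest were Tbc1d23 with an MT2_Mm start at a mean of 20.6 FPKM, Sgk1 with an MT2C_Mm start at 16.5 and Arih2 with an MT2_Mm start at 16.2, and each has other RefSeq starts as well. Sgk1, a serum- and glucocorticoid-regulated kinase gene, had 19.1, 19.4 and 18.1 FPKM in wild-type and 14.4, 15.2, 12.04 and 17.5 in mutant libraries (log2 fold change -0.35, standard error 0.11, limma, adjusted p = 0.206). FPKM covers all starts of a gene, so the share of each start is unknown.

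None of the 43 activators and repressors of MERVL that could be tested passed the threshold of limma (adjusted p of 0.05), against 0.00715% of 13988 genes. Of 7 activators, 1 was lower at an unadjusted p under 0.05 (Nelfa, named after its values were seen), and of 36 repressors 11 were lower and 1 higher, against 8.79% and 8.21% of all genes. The median log2 fold change was -0.06 for activators and -0.09 for repressors, against 0.01 for all genes. The activator Dppa4 had 114, 159 and 28.3 FPKM in wild-type and 70.9, 46.3, 31.7 and 31.6 in mutant libraries, with wild-type replicate 3 below every mutant library. Its partner Dppa2 had 1.69 ± 0.547 FPKM (SD, n = 3) in wild-type and 1.36 ± 0.383 (SD, n = 4) in mutant libraries.

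Among repressors the smallest p was that of Zfp42, which encodes REX1, a repressor of MERVL in embryonic stem cells. It had 9.09, 7.61 and 6.33 FPKM in wild-type and 3.13, 2.76, 3.97 and 3.05 in mutant libraries, without overlap, and the log2 fold change was -1.13 with a standard error of 0.14 (limma, adjusted p = 0.109). Kdm1a, a histone demethylase gene, had means of 58.3 and 47.7 FPKM (log2 fold change -0.28, adjusted p = 0.225, limma). Setdb1, a histone methyltransferase gene, had 44.3 and 37.5 FPKM (-0.23, adjusted p = 0.194, limma), and Trim28, its recruiter, 223 and 203 FPKM (-0.11, adjusted p = 0.731, limma). Max, a partner of MGA, had 12.8 and 10.3 FPKM (-0.30, adjusted p = 0.168, limma). On the other side, Uhrf1, a gene of DNA methylation upkeep, had 42.9 and 50.1 FPKM (0.22, adjusted p = 0.244, limma) and Chaf1b, a histone chaperone gene, 24.4 and 28.0 FPKM (0.20, adjusted p = 0.339, limma).

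Without wild-type replicate 3, 5 of these genes passed the threshold, all lower, against 5.15% of 14019 genes. They were Zfp42 (log2 fold change -1.25, adjusted p = 0.00681, limma), the RNA-binding protein gene Lin28a (-1.37, adjusted p = 0.00883, limma), Dppa4 (-1.65, adjusted p = 0.0326, limma), Kdm1a (-0.38, adjusted p = 0.0463, limma) and Rif1 (-0.34, adjusted p = 0.0492, limma). The germ cell genes had the lower sums in mutant libraries given above. Wild-type replicate 3 had the lowest of the wild-type sums, so leaving it out widened that difference. Calls over all genes were 1 with that library and 722 without it. The part of the germ cell genes in these values was not tested.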

How the data were processed

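Whole E14.5 testes had been sequenced in 3 WT and 4 Mutant libraries, 1 pair of testes each. The authors aligned reads to mm10 with TopHat2 2.0.12, retained unique hits and counted them per RepeatMasker annotation by HTSeq, and the deposited values are raw counts. The deposited FPKM per RefSeq gene came from the authors' Cuffquant and Cuffnorm workflow. For the sequencing the paper states a minimum number of read pairs, but not the depth of each library. The header of both tables runs 2 library names together, and the 7 names were read in header order. Loci were placed against GENCODE M21 with bedtools 2.31.1. Loci averaging 1 read or more, and sums per element name averaging 10 reads or more, were tested over the whole table with edgeR 4.0.16 (R 4.3.3, TMM, two-sided quasi-likelihood test, Benjamini-Hochberg, threshold 0.1). CPM use edgeR's effective library sizes. Genes averaging 0.5 FPKM or more were tested by limma 3.58.1 (trend, threshold 0.05) on a log2 scale after adding a pseudocount of 0.5, which understates changes of low genes. Single values were compared by two-sided exact permutation tests. The edgeR and limma steps were tested on simulated data. Groups came from the sample labels, each library is a separate embryo, and library totals of 3454317 to 4670830 reads set the counting error. RefSeq promoter windows on GRCm38 supplied the sequences.

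The named items were all 8 element names, loci past the threshold, the 10 most abundant loci, the 5 smallest p in each direction, the most abundant locus outside genes, complete proviruses (5000 to 8000 bases) and, among listed genes, Dux, Zfp352, the Zscan4 genes, Dppa2, Dppa4, Zfp42, Kdm1a, Trim28, Setdb1, those past the threshold, the smallest p in each direction and hosts of named loci. Members and lists were chosen with earlier results of these data known. The alternatives were DESeq2 1.42.0, other size factors, filters, thresholds and pseudocounts, loci outside genes, a fit blocked by replicate number, and dropping 1 library at a time. The sum of MERVL_2A-int without its chromosome 10 pair was added after seeing the data.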

Additional observations from a re-analysis of the deposited data

Results flagged for a closer look

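In 4 of 48 values looked at, 1 mutant library stood apart from the other 3 by Dixon's test, and chance flags about 1 in 20. MERVL-int had 612 CPM in mutant replicate 1 and 633 to 637 in the others, and MT2A had 2399 CPM in mutant replicate 2 and 2464 to 2473 in the others. In mutant replicate 3, the MT2B fragment in Stip1 had 307 CPM beside 224 to 238, and the MERVL_2A-int part of B230354K17Rik had 435 CPM beside 363 to 368.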

How the results depend on the processing

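The count of 4 MERVL and MT2 loci past the threshold became 2 at an adjusted p of 0.05, 2 with no filter, 0 with a mean of at least 10 reads and 0 by DESeq2, and ran from 0 (without wild-type replicate 2) to 7 (without wild-type replicate 3) when 1 library was left out. Over all loci edgeR called 393 of 464695, or 305 at an adjusted p of 0.05, and DESeq2 called 15. With no filter 284 of 1495720 loci were called, and with a mean of at least 10 reads 17 of 60909. Without wild-type replicate 2 the call covered 139 of 472209 loci, and without wild-type replicate 3 659 of 467336. With so few calls over all loci, a count of 0 says nothing particular to MERVL and MT2. Of the 8 element names 0 were past the threshold in every alternative except loci outside genes, where 2 were, and the log2 fold change of MT2_Mm was then 0.30. Over all 831 names edgeR called 1 and DESeq2 46. The share outside genes differed by 0.470 percentage points when loci averaging under 1 read were left out (p = 0.0286 by an exact permutation test, which allows no lower value). The count of regulator genes past the threshold was 0 in all alternatives but that without wild-type replicate 3, so it ran from 0 to 5. The internal to LTR ratio kept its direction, from 0.00425 to 0.0975, in 10 alternatives.

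With a replicate block, 1 of the 4 loci was called (the MERVL_2A-int locus on chromosome 10), beside 217 of all 464695 loci, and MT2B1 turned to -0.00542. The numbers did not pair the samples (correlations of 0.038, -0.081 and 0.026 over 60909 loci, and no library correlated best with its own number).

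Log2 fold changes near 0 turned with the setting. With loci averaging under 1 read left out, MT2_Mm was -0.00246 and MT2B1 -0.011. Over loci outside genes MT2B was 0.24 and MT2B2 0.17. With library size only, MERVL-int was -0.010, MT2_Mm -0.027, MERVL_2A-int -0.033, MT2A -0.021 and MT2B1 -0.044. With 1 library left out, the ranges were -0.00862 to 0.056 for MT2_Mm, -0.027 to 0.045 for MERVL_2A-int, -0.00775 to 0.046 for MT2A, -0.096 to 0.00230 for MT2B, -0.027 to 0.031 for MT2B1, -0.059 to 0.00497 for MT2B2, and -0.26 to 0.072 for Trim28. They were -0.18 to 0.051 for the second MERVL_2A-int locus of B230354K17Rik and -0.031 to 0.10 for the MT2A locus of Pramef8, which was -0.000298 with a mean of at least 10 reads. The difference in CPM ran from -106 to 401 over all MERVL and MT2 loci, -6.30 to 131 for internal parts, -99.8 to 269.98 for LTRs, and -3.81 to 7.002 for complete proviruses outside genes. The causes were not tested.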
